A study of Mus musculus with 6 samples.

Results

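Of the 25140 genes listed, 10 imprinted genes of growth control were followed by name: *H19*, *Meg3*, *Rian*, *Grb10* and *Zim1*, which are known to be expressed mainly from the maternal allele, and *Dlk1*, *Peg3*, *Plagl1*, *Ndn* and *Mest*, known to be expressed from the paternal one. They were selected by symbol, and no threshold on measured values was used. The members and the lists below were nevertheless chosen with earlier results of these data known. The share of a list that was called is thus a description. Imprinted genes carry DNA methylation set in the egg or the sperm, so that a single parental copy is active in most tissues. Many of them lie in clusters with a shared control region, most adjust fetal and early postnatal growth, and many are turned down together after birth.

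RNA was measured in primary cardiac fibroblasts, isolated from adult C57BL/6 hearts and used at passage 1, after treatment with vehicle or with TGFβ, a cytokine under which fibroblasts become myofibroblasts, cells that contract and lay down matrix. Both groups were grown in DMEM with 25 mM glucose and 10% FBS, moved to 1% FBS for 16 h, and then kept for 24 h without (vehicle, 3 libraries) or with 10 ng/ml TGFβ (3 libraries). The labels name no deletion or transgene in either group. The labels give adult cardiac fibroblasts, and the study's sequencing methods name cardiac fibroblasts without an age. The results text and figure legends of the study instead call the sequenced cells mouse embryonic fibroblasts. The labels are followed here, and the origin, adult or embryonic, bears on every level of a fetal gene given below. C57BL/6 is an inbred strain, so reads do not show their parent of origin, and every level below is the sum of both alleles. The study's methods give 3 biological replicates and do not say whether these came from separate hearts. The p-values therefore measure the spread between these cultures, whatever separates them. Libraries are lettered A to C within a group by falling total count, from 31072338 in vehicle A to 27851677 in TGFβ C, and equal letters in the 2 groups mean nothing.

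The labelled cell type was checked against its markers. All 8 fibroblast markers and 8 of 9 transcription factors of the cardiac lineage passed the filter on low counts. *Tcf21* was at 303 ± 3.54 CPM (SD, n = 3) with vehicle and 147 ± 2.05 with TGFβ. *Isl1* was under the filter, and *Nkx2-5* was at 0.491 ± 0.304 CPM with vehicle. The 9 factors summed to 817 to 1265 CPM per library, and 12 posterior Hox genes to 3.95 to 6.84 CPM. Of 8 markers each, 8 endothelial, 6 leukocyte and 3 cardiomyocyte markers passed the filter too. CPM is the usual count of reads scaled to a common library size, here after TMM scaling. The cytokine acted: 6 of 9 genes chosen as known TGFβ responses rose and 0 fell, among them *Acta2* (smooth muscle actin, log2 fold change 1.03) and *Ccn2* (1.49). Vehicle B and TGFβ B stood apart from the other 4 libraries on the second principal component. They were the highest of their group in summed endothelial markers (704 and 572 CPM, against 414 to 518 elsewhere). They were also the highest in summed leukocyte markers, a sum that *Lyz2* dominates. Vehicle A (92.8 CPM) and TGFβ C (50.7) were highest in mesothelial markers, where the other libraries held 16.9 to 35.9. In bulk RNA, fewer cells of a type and less RNA per cell cannot be told apart.

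Several of the members are long transcripts that also hold microRNAs, and the sequences below are shown to identify what the host genes carry. In RefSeq (GRCm38.p6), 13 mature microRNAs lay within the spans of 4 members, and the seed, bases 2 to 8, is in capitals. *Rian*, which rose with TGFβ, spans 6 of them.
miR-341-5p: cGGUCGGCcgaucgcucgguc
miR-341-3p: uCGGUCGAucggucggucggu
miR-1188-5p: uGGUGUGAgguugggccagga
miR-1188-3p: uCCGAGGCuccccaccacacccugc
miR-370-5p: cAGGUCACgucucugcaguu
miR-370-3p: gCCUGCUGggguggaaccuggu
None of these 6 share a seed with one another, and 1 of them, miR-370-5p, shares its seed with another mouse microRNA of the table, miR-1193-3p. *H19* spans the pair of miR-675, *Meg3* spans miR-770 and miR-1906, and *Mest* spans miR-335.
miR-675-5p: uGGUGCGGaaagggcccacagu
miR-675-3p: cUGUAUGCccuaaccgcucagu
miR-770-5p: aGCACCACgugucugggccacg
miR-770-3p: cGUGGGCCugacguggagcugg
miR-1906: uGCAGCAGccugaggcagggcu
miR-335-5p: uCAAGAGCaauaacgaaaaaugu
miR-335-3p: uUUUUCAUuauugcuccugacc
The poly(A) libraries measured the host transcripts and neither the precursors nor the mature forms of these microRNAs.

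The members were expressed over several orders of magnitude. Per length (RPKM, CPM per kilobase of merged exon, comparable between genes), the order with vehicle was *Grb10* (25.7 ± 1.58, SD, n = 3), *Ndn* (20.8 ± 1.71), *H19* (12.1 ± 2.02), *Mest* (9.87 ± 3.32), *Rian* (3.04 ± 0.574), *Plagl1* (1.81 ± 0.0271), *Peg3* (1.56 ± 0.0609), *Meg3* (1.01 ± 0.134), *Dlk1* (0.182 ± 0.136) and *Zim1* (0.0203 ± 0.000786). Of the neighbours in this order, *H19* and *Mest* overlapped over the libraries, and the other pairs did not. With TGFβ the order was the same but for *Peg3* (1.62 ± 0.188) and *Plagl1* (1.52 ± 0.106), which overlapped. The adaptor *Grb10* thus headed the list in both groups, at 30.9 ± 2.37 RPKM with TGFβ, and the zinc finger gene *Zim1* closed it.

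Of the 10 members, 9 passed the filter on low counts. With TGFβ 2 rose (*Rian* and *Grb10*), 1 fell (*Plagl1*) and 6 were not called (edgeR quasi-likelihood test, adjusted p under 0.05 over 14334 genes). Over all genes tested, 40.7% were called, 20.5% higher and 20.1% lower, so 3 of 9 members is near the background. The groups did not overlap in the same 3 members, against 53.3% of all genes tested (27.2% higher, 26.1% lower). The median log2 fold change of the 9 was 0.05 and the median size 0.25, against 0.00 and 0.21 over all genes. No member changed by more than 1 on the log2 scale among those called, where 6.77% of all genes did. The number of members called was 1, *Rian*, when vehicle B, vehicle C or TGFβ C was left out. For a single gene an exact permutation test of 3 against 3 cannot go below p = 0.1.

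**Figure D1:**
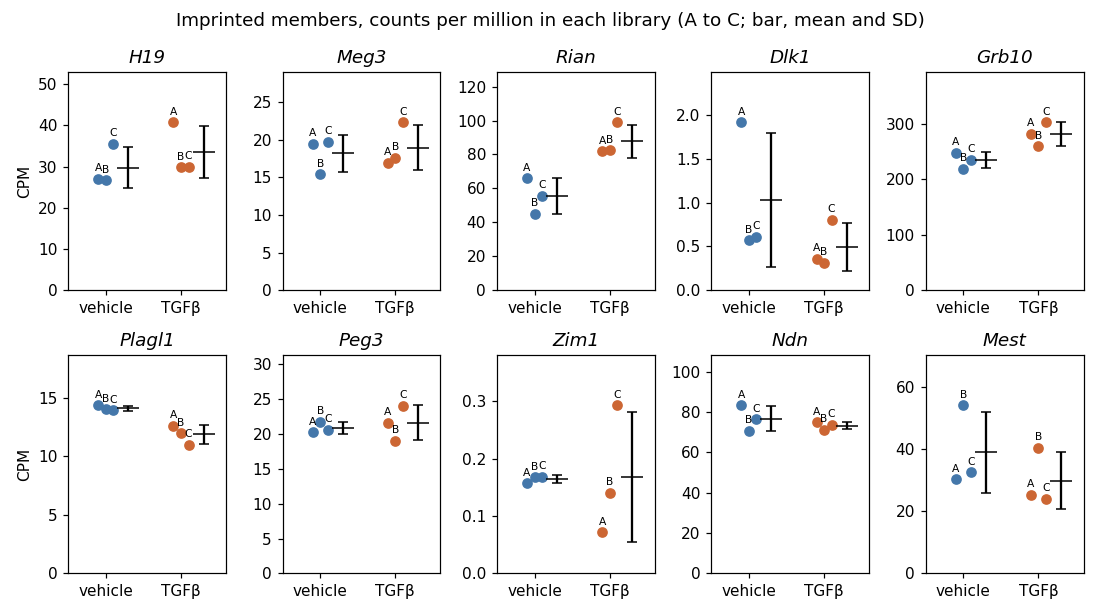
CPM (y axis, from 0) of the 10 members in the vehicle (blue) and TGFβ (orange) libraries, lettered A to C, with the mean and SD of each group beside the points. The groups are apart for *Rian*, *Grb10* and *Plagl1* and overlap for the other 7, and *Mest* is highest in library B of both groups.

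**Figure D2:**
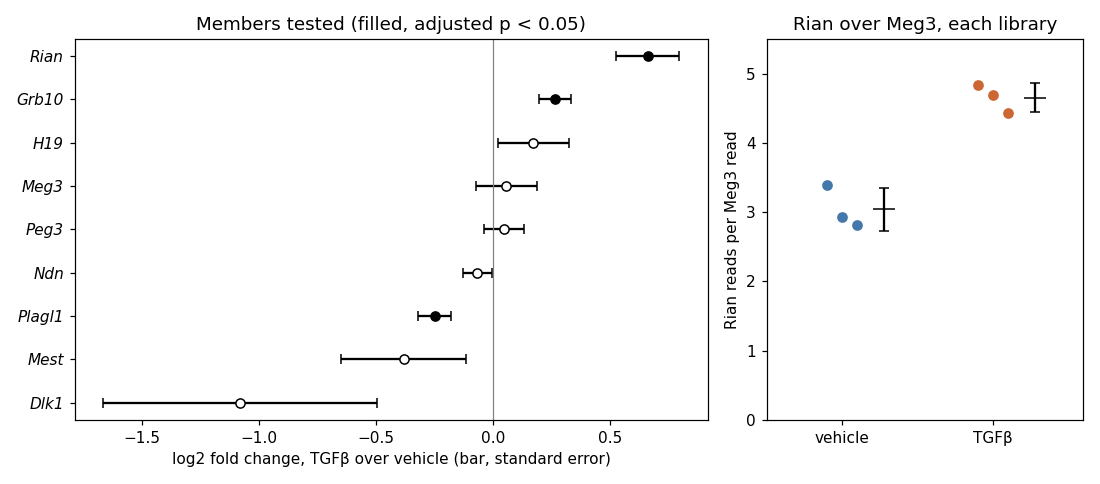
Left, log2 fold change of TGFβ over vehicle with its standard error for the 9 members tested, filled where the adjusted p was under 0.05, from *Rian* at 0.66 to *Dlk1* at -1.08. Right, reads of *Rian* per read of *Meg3* in each library with the mean and SD, 2.81 to 3.39 with vehicle and 4.43 to 4.84 with TGFβ.

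The *Dlk1*-*Meg3* cluster on chromosome 12 held the largest change among the members called. Its maternal transcripts *Meg3* (GRCm38 chr12:109541001-109571726, plus strand) and *Rian* (chr12:109603940-109661716, plus strand) are long noncoding RNAs that run in the same direction 32.2 kb apart, and *Dlk1* (chr12:109452823-109463336, plus strand), 77.7 kb before *Meg3*, is the paternal protein-coding gene. *Rian*, which carries small nucleolar RNAs and microRNAs in its introns, had 65.9, 45.0 and 55.4 CPM in vehicle A, B and C and 81.8, 82.5 and 99.0 CPM in TGFβ A, B and C. All TGFβ libraries were thus above all vehicle libraries. *Rian* rose 1.58-fold (log2 fold change 0.66, SE 0.14, edgeR adjusted p = 0.00626), and it was called under all 12 other processing settings, with log2 fold changes of 0.53 to 0.81.

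*Meg3*, a noncoding RNA known as a growth suppressor, gave 19.5, 15.4 and 19.7 CPM with vehicle and 16.9, 17.6 and 22.3 with TGFβ. The groups overlapped, and the log2 fold change was 0.06 (SE 0.13, edgeR adjusted p = 0.757), with a sign that turned when vehicle B or TGFβ C was left out. Reads of *Rian* per read of *Meg3*, a ratio within a library that no scaling can move, were 3.39, 2.92 and 2.81 in vehicle A, B and C and 4.84, 4.69 and 4.43 in TGFβ A, B and C. The ratio was higher in each TGFβ library than in any vehicle library, by 0.62 on the log2 scale. This contrast between the 2 maternal RNAs is a description, since the ratio itself was not tested.

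*Dlk1*, a membrane protein related to the Notch ligands that holds back adipocyte differentiation, was expressed at a low level. Its counts were 61, 17 and 18 in vehicle A, B and C and 10, 9 and 22 in TGFβ A, B and C. The groups overlapped, and the vehicle mean rested on vehicle A. The log2 fold change was -1.08 (SE 0.58, edgeR adjusted p = 0.180) and -0.26 without vehicle A. Vehicle A and TGFβ C, the highest of their groups in *Dlk1*, were also the highest in the summed mesothelial markers, and over the 6 libraries the 2 log2 levels correlated with r = 0.95. None of the 7 mesothelial markers tested was called between groups, and their part in the *Dlk1* values was not tested.

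*Meg3* and *Rian* lie on one strand of one cluster. The 250 bases before the first annotated start of each are shown, with every CG in capitals (RefSeq, GRCm38.p6, plus strand).
Meg3, chr12:109540746-109540995: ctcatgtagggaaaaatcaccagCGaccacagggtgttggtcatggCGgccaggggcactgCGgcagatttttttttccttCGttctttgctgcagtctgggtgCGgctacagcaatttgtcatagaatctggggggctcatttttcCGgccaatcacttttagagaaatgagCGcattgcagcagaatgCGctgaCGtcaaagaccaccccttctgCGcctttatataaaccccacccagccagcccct
Rian, chr12:109603695-109603944: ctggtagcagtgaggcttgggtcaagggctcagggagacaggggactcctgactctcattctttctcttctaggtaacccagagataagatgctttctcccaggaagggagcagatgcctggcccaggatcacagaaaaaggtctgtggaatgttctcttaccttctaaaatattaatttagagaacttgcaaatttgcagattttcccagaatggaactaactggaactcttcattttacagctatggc
The *Meg3* window held 10 CG and the *Rian* window 0, as did the window before a second annotated start of *Meg3*. Of 32851 windows of this length before RefSeq starts, 92.1% held at least 1 CG, and the median was 6. The *Rian* window overlaps annotated exons of *Rian* and *Gm27350*. The poly(A) reads do not show where a transcript started, and the part of these windows in the *Rian* and *Meg3* values was not tested.

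A total of 3 genes beside these members passed the filter, and 0 of them were called, where 40.7% of all genes were. *Mirg*, the noncoding RNA farther along the cluster, had a log2 fold change of 0.11 (SE 0.23, edgeR adjusted p = 0.743) on 1.17 to 1.86 CPM. *Dio3*, which inactivates thyroid hormone, was at 15.8 ± 1.86 CPM with vehicle and 19.2 ± 1.84 with TGFβ (log2 fold change 0.28, edgeR adjusted p = 0.0655). *Begain*, at the other end, was at 1.65 ± 0.432 and 1.04 ± 0.0930 CPM (-0.67, edgeR adjusted p = 0.0524). The groups overlapped for the first 2 and not for *Begain*.

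*H19* (chr7:142575529-142578143, minus strand), a maternal noncoding RNA, lies 72.6 kb from *Igf2*, a paternally expressed growth factor under the same control region. *H19* was at 27.1, 26.7 and 35.5 CPM in vehicle A, B and C and at 40.8, 29.8 and 29.9 CPM in TGFβ A, B and C. The highest library was TGFβ A, and the groups overlapped. The log2 fold change was 0.17 (SE 0.15, edgeR adjusted p = 0.404), and 0.01 without TGFβ A. *Igf2* was lower in level and overlapped as well, at 10.2 ± 1.19 CPM with vehicle and 8.93 ± 1.37 with TGFβ (-0.19, SE 0.13, edgeR adjusted p = 0.299, -0.30 without TGFβ A and -0.08 without TGFβ C).

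In the neighbouring *Kcnq1* cluster of chromosome 7, 3 genes were called. *Cdkn1c*, a maternally expressed inhibitor of the cell cycle, fell from 4.87, 4.96 and 4.32 CPM with vehicle to 1.97, 1.47 and 2.01 CPM with TGFβ (log2 fold change -1.38, SE 0.15, edgeR adjusted p = 0.000373). *Slc22a18*, a transporter beside it, fell by 1.08 on the log2 scale (SE 0.19, edgeR adjusted p = 0.00351). *Nap1l4*, a histone chaperone, rose by 0.11, and was called in 3 of 12 other settings. Of 14 genes in the *H19*-*Igf2* and *Kcnq1* list, 9 were tested, 1 rose and 2 fell, 33.3% called against 40.7% of all genes. Those not called were *Igf2*, *Kcnq1* (0.42), its antisense RNA *Kcnq1ot1* (-0.11), *Osbpl5* (-0.13), *Cd81* (0.02) and *Tssc4* (0.16).

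*Grb10* (chr11:11930508-12038683, minus strand) encodes an adaptor that binds the insulin and IGF1 receptors and dampens their signal. It was at 247, 219 and 235 CPM in vehicle A, B and C and at 281, 259 and 302 CPM in TGFβ A, B and C, so the groups did not overlap. It rose 1.20-fold (log2 fold change 0.26, SE 0.07, edgeR adjusted p = 0.0176), a change small beside that of *Rian*. The call was lost, at edgeR adjusted p of 0.0515 to 0.0538, without vehicle B, without vehicle C or without TGFβ C, with log2 fold changes of 0.21 to 0.27. The 250 bases before its first annotated start are shown because *Grb10* is the most abundant member and has a dense CG island there (RefSeq, GRCm38.p6, minus strand, every CG in capitals).
Grb10, chr11:12037421-12037670: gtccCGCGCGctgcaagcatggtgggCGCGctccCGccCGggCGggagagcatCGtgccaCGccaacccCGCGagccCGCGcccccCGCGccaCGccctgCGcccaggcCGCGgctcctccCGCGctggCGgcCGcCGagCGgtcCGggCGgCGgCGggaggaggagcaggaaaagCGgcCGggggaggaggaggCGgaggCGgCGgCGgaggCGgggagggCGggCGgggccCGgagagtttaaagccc
This window held 40 CG at 81.2% G and C, and 1.09% of the 32851 windows held more. Over the 6 libraries the levels of *Grb10* and *Rian* correlated with r = 0.96 (log2 CPM, already scaled for library size), with the group difference shared by both.

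The pathway *Grb10* acts on was read as a list. Of 21 genes of IGF and insulin receptor signalling, 20 were tested, 3 rose and 8 fell (median log2 fold change -0.14). The share called was 55%, against 40.7% of all genes (20.5% higher, 20.1% lower). The ligand *Igf1* rose from 77.4 ± 9.17 to 155.5 ± 29.0 CPM (log2 fold change 1.01, SE 0.14, edgeR adjusted p = 0.00107). Of the IGF binding proteins, which hold the ligands outside the cell, *Igfbp4* fell from 826 ± 81.9 to 133.7 ± 26.4 CPM (-2.63, SE 0.15, edgeR adjusted p = 1.82e-05) and *Igfbp5* fell by 1.51. *Igf2bp2*, which binds *Igf2* mRNA, fell by 1.36. *Igfbp7*, the most abundant gene of the list, was not called (-0.04). The receptors were named after their values were seen: *Igf1r* (-0.07, edgeR adjusted p = 0.654), *Insr* (-0.01, edgeR adjusted p = 0.866) and *Igf2r* (-0.09, edgeR adjusted p = 0.437) were not called. *Grb14*, the paralogue of *Grb10* and named in the same way, fell by 0.72 (SE 0.08, edgeR adjusted p = 0.000351), from 62.3 ± 6.30 to 37.7 ± 2.26 CPM, opposite in sign to *Grb10*. *Irs1* rose by 0.48 and *Irs2* fell by 0.34, both named after their values were seen, and the call on *Irs1* was lost in 7 of 12 other settings.

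*Plagl1* (chr10:13060504-13131694, plus strand) encodes a zinc finger factor, ZAC1, that restrains the cell cycle and is known to activate other imprinted genes. Its levels were 14.4, 14.0 and 14.0 CPM in vehicle A, B and C and 12.6, 12.0 and 11.0 CPM in TGFβ A, B and C. Every TGFβ library was below every vehicle library, and the vehicle libraries were close to each other (CV 1.50%, with a lower CV in 4.77% of genes of like level). *Plagl1* fell by 0.25 on the log2 scale (SE 0.07, edgeR adjusted p = 0.0235). DESeq2 did not call it (-0.25, adjusted p = 0.0648), and edgeR did not either when any 1 of vehicle A, vehicle B, vehicle C or TGFβ C was left out (-0.20 to -0.26, adjusted p = 0.0518 to 0.0681). Of its family, *Plag1* and *Plagl2*, 0 of 2 were called. *Phactr2*, the gene beside *Plagl1*, fell from 51.8 ± 2.10 to 39.6 ± 1.91 CPM (-0.39, SE 0.05, edgeR adjusted p = 0.000864).

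Growth arrest genes were read beside *Plagl1* and *Ndn*. Of 14 cell cycle genes, 2 rose and 7 fell, 64.3% called against 40.7% of all genes. *Cdkn1a*, the most abundant and an inhibitor of cyclin-dependent kinases, rose by 0.57 (SE 0.11, edgeR adjusted p = 0.00525), and the other that rose, *Cdkn2a*, is also an inhibitor. Inhibitors did not all rise. *Cdkn1b*, of the same list, was not called (-0.10, edgeR adjusted p = 0.252), and *Cdkn1c*, outside this list, fell by 1.38. The 7 that fell included the proliferation marker *Mki67* (-0.99, SE 0.06, edgeR adjusted p = 2.27e-05). *Cdkn1b*, *Cdkn2a* and *Mki67* were named after their values were seen.

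*Ndn* (chr7:62346569-62350262, plus strand) encodes necdin, a MAGE family protein that binds E2F1 and p53 and restrains growth. It was at 76.8 ± 6.33 CPM with vehicle and 73.4 ± 1.86 with TGFβ and overlapped between groups (log2 fold change -0.07, SE 0.06, edgeR adjusted p = 0.427). Without vehicle A the value was -0.0043 and without vehicle B it was -0.12, and neither was called. Other genes of its cluster, the Prader-Willi and Angelman region, were called: *Snrpn*, a splicing factor gene expressed from the paternal allele, rose from 10.6, 8.68 and 10.3 CPM to 19.3, 13.4 and 18.1 CPM (log2 fold change 0.78, SE 0.14, edgeR adjusted p = 0.00409). *Ube3a*, a ubiquitin ligase imprinted mainly in neurons, rose by 0.23, and *Atp10a*, a phospholipid flippase, by 0.44. *Mkrn3*, at 0.304 ± 0.118 and 0.538 ± 0.0712 CPM, did not overlap between groups and was not called (0.80, edgeR adjusted p = 0.0827). Of 6 genes tested beside *Ndn*, 3 rose and 0 fell, 50% called against 40.7% of all genes. Of 6 necdin and MAGE partners tested, 3 rose and 1 fell, 66.7% called. *Maged1*, the most abundant, rose by 0.25 (edgeR adjusted p = 0.00602), and the 1 that fell was *Maged2* (-0.55, edgeR adjusted p = 0.00458, named after its value was seen).

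*Peg3* (chr7:6703892-6730431, minus strand) encodes a large zinc finger protein with roles in growth and in apoptosis. It overlapped between groups, at 20.8 ± 0.811 CPM with vehicle and 21.6 ± 2.50 with TGFβ (log2 fold change 0.05, SE 0.09, edgeR adjusted p = 0.687), and the sign turned without TGFβ C. *Zim1* (chr7:6671269-6696450, minus strand), a zinc finger gene 7.44 kb away and expressed from the maternal allele, had 5, 5 and 5 counts with vehicle and 2, 4 and 8 with TGFβ. It was under the filter and got no test. The ratio of the summed counts, 14 with TGFβ and 15 with vehicle, corrected for library size, was 1.02 (95% interval 0.455 to 2.26, counting error only), so a change of about 2-fold either way was not detectable at this depth.

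*Mest* (chr6:30723547-30748465, plus strand) encodes an enzyme of the alpha/beta hydrolase fold that is abundant in fetal mesoderm. Its levels were 30.3, 54.0 and 32.5 CPM in vehicle A, B and C and 25.3, 40.4 and 23.9 CPM in TGFβ A, B and C. The B library of each group was far above the other libraries of that group, and the groups overlapped. The log2 fold change was -0.38 (SE 0.27, edgeR adjusted p = 0.293). The spread of *Mest* over replicates, a CV of 33.6% with vehicle and 30.7% with TGFβ, was larger than that of 99.6% and 99.2% of genes of like level. When vehicle B and TGFβ B were left out together, a setting chosen after the data were seen, *Mest* fell by 0.36 (SE 0.07), with 2 libraries a group. These libraries are the highest in *Mest*, so leaving them out narrows its spread by construction. The edgeR adjusted p of 0.00634 from that fit is therefore no test of a change in *Mest*. Leaving out a single B library moved the value in opposite ways, to -0.07 without vehicle B (edgeR adjusted p = 0.828) and to -0.67 without TGFβ B (edgeR adjusted p = 0.0714), and neither passed the threshold.

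Endothelial markers, as a sum, moved with *Mest* over the libraries, as did other marker sums. Their sum was 457, 704 and 518 CPM in vehicle A, B and C and 459, 572 and 414 CPM in TGFβ A, B and C, and its log2 level correlated with that of *Mest* with r = 0.98 over the 6 libraries. Among 10373 genes of at least 5 CPM, the one most like *Mest* was *Cdh5*, the cadherin of endothelial junctions (r = 0.998), then *Pld3* (0.996) and *Thsd1* (0.995). *Cdh5* was at 156, 271 and 173 CPM with vehicle and at 134, 203 and 125 CPM with TGFβ. The sum of 8 leukocyte markers, 1 of which had no row, also followed *Mest* (r = 0.99), from 209 to 344 CPM. *Lyz2* dominated this sum, at 232 ± 49.8 CPM with vehicle and 202 ± 48.6 with TGFβ. *Ptprc*, another of these markers, was at 2.92, 4.43 and 3.57 CPM in vehicle A, B and C. With TGFβ it was at 3.47, 2.98 and 2.52 CPM in A, B and C, so library B was not its highest there. For the fibroblast sum r was 0.89, for smooth muscle and pericyte markers, *Notch3* included, 0.73 and for mesothelial markers -0.10. Of 8 endothelial markers tested, 0 were called between groups, and of 6 leukocyte markers 0. The endothelial markers *Tek* (log2 fold change 0.25) and *Emcn* (0.01) lay above 0, and the other endothelial markers below. The part of any of these cell types in the *Mest* values was not tested.

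**Figure D3:**
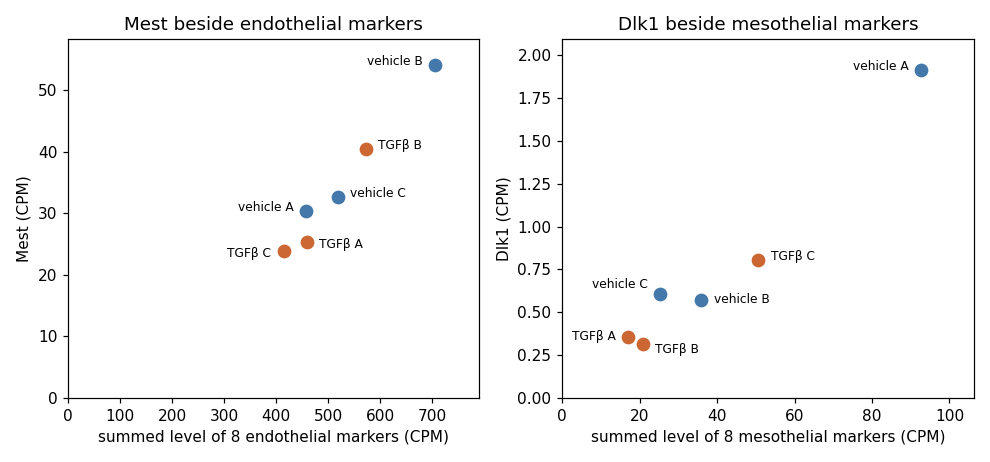
Left, CPM of *Mest* against the summed CPM of 8 endothelial markers, and right, CPM of *Dlk1* against the summed CPM of 8 mesothelial markers, 1 point a library (blue, vehicle; orange, TGFβ; both axes from 0). *Mest* was highest in vehicle B (54.0) and TGFβ B (40.4), where the endothelial sum was highest, and *Dlk1* in vehicle A (1.92) and TGFβ C (0.804), where the mesothelial sum was.

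*Mest* shares its 3′ end with *Copg2*, a coat protein gene on the opposite strand. Of the 75-base windows of *Mest* exon sequence, 32.3% also occur in *Copg2*, and *Copg2* had 9647 counts over the 6 libraries, 159% of the count of *Mest*. Whether the counting used strand is not given in the sources used here. *Copg2* itself was at 55.5 ± 2.50 and 54.6 ± 2.48 CPM (log2 fold change -0.02, edgeR adjusted p = 0.756) and did not show the rise in the B libraries (52.7 and 51.8 CPM). For *Meg3* the share of windows found in other genes was 7.63%, and for the other members it was below 1%.

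A separate imprinted cluster of chromosome 6, far from *Mest*, held the largest change among the imprinted genes tested. *Peg10* (chr6:4747306-4760517, plus strand), a paternally expressed gene derived from a retrotransposon, fell from 346, 285 and 383 CPM with vehicle to 105, 69.1 and 100.3 CPM with TGFβ (log2 fold change -1.88, SE 0.17, edgeR adjusted p = 0.000134). *Sgce*, which encodes epsilon-sarcoglycan and starts head to head with *Peg10*, fell by 0.59 (SE 0.05, edgeR adjusted p = 0.000122). *Ppp1r9a*, beyond *Peg10*, fell by 0.81 (SE 0.17, edgeR adjusted p = 0.00715). *Asb4* was not called (-0.12). These are the tested genes of this cluster in the fixed list of neighbours. *Pon2* and *Pon3* were kept in the list of other imprinted genes and named after their values were seen. *Pon2* rose (0.20, edgeR adjusted p = 0.00782) and *Pon3* fell (-0.22, edgeR adjusted p = 0.0253). *Peg10*, *Sgce* and *Ppp1r9a* were called lower in each of 12 other settings.

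**Figure D4:**
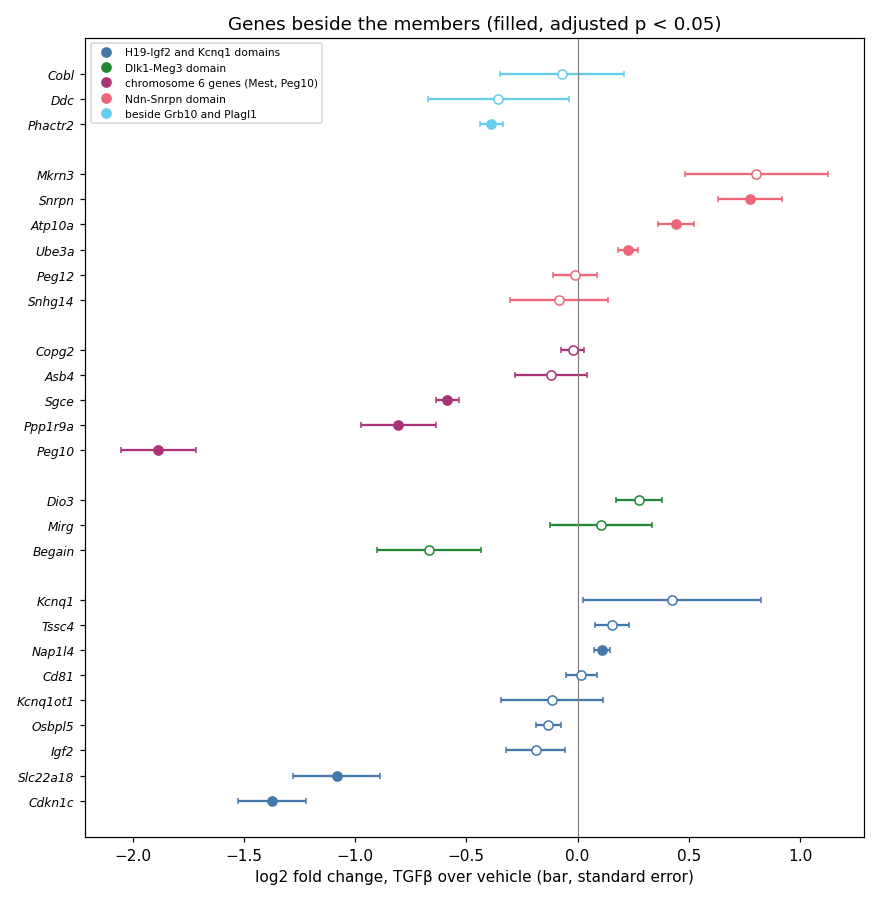
Log2 fold change of TGFβ over vehicle (x axis, bars are standard errors) of the 26 tested genes of the neighbour lists, coloured by list and filled where the adjusted p was under 0.05. The chromosome 6 list includes the *Peg10* cluster, which is far from *Mest*. *Peg10* (-1.88), *Cdkn1c* (-1.38) and *Slc22a18* (-1.08) lie farthest to the left, and the 3 filled genes of the *Ndn* cluster lie to the right of 0.

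Over all genes listed as imprinted in addition to the members, 53 of 75 were tested, 7 rose and 12 fell, 35.8% against the 40.7% of all genes. Whether each of them is imprinted in these cells was not measured. The median log2 fold change was -0.07. The 3 that changed by more than 1 on the log2 scale, *Peg10*, *Cdkn1c* and *Slc22a18*, all fell. Of 27 tested genes in the list of other imprinted genes, 3 rose and 6 fell, 33.3% called. That list holds *Pon2* and *Pon3* but not *Peg10*, *Sgce*, *Ppp1r9a* or *Asb4*, which were kept with the neighbours. Of the 27, the most abundant in CPM over both groups was *Dcn*, a proteoglycan gene that is also one of the fibroblast markers. *Dcn* fell by 0.52 (SE 0.10, edgeR adjusted p = 0.00570). The others were named after their values were seen. *Gnas*, which encodes a G protein subunit, was not called (0.07). It was next in level with vehicle and above *Dcn* with TGFβ (1385 against 1148 CPM). The 3 that rose were *Blcap* (0.18), *Jade1* (0.26) and *Pon2* (0.20), and those that fell included *Gab1*, an adaptor of receptor tyrosine kinases (78.9 ± 9.71 to 47.6 ± 5.40 CPM, log2 fold change -0.73, edgeR adjusted p = 0.00146).

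Genes of imprint maintenance and of DNA methylation, both its setting and its removal, were read together. Of 14 tested, 1 rose and 4 fell, 5 of 14 against the 40.7% of all genes. Those called were named after their values were seen. Those that fell were *Dnmt1*, the maintenance methyltransferase (43.5 ± 0.788 to 34.2 ± 0.709 CPM, log2 fold change -0.35, SE 0.04, edgeR adjusted p = 0.000466), its partner *Uhrf1* (-0.60, edgeR adjusted p = 0.00666), the imprint-binding zinc finger gene *Zfp57* (-0.39, edgeR adjusted p = 0.0309) and *Dnmt3l* (-0.71, edgeR adjusted p = 0.0445). *Tet3*, which oxidises methylcytosine, rose by 0.20 (edgeR adjusted p = 0.0148). *Trim28*, the most abundant and the corepressor that *Zfp57* recruits, was not called (0.09). The calls on *Zfp57* and *Dnmt3l* were each lost in 5 of 12 other settings. DNA methylation was not measured in these libraries.

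*Dlk1* is also read through the Notch pathway and through genes of fetal cells and adipocyte precursors. Of 14 Notch pathway genes tested, 2 rose and 5 fell, 50% called against 40.7% of all genes. *Notch3* fell from 207 ± 16.7 to 57.3 ± 7.58 CPM (log2 fold change -1.85, SE 0.10, edgeR adjusted p = 1.58e-05). *Notch4* rose from 50.9 ± 7.89 to 137 ± 3.35 CPM (1.43, SE 0.10, edgeR adjusted p = 4.17e-05), as did the target *Heyl* by 1.27. Other targets did not rise with *Heyl*. *Hey2* fell (-0.63, edgeR adjusted p = 0.00195), and *Hes1* (-0.18), *Hey1* (0.04) and *Nrarp* (-0.71) were not called. *Rbpj*, of the same list, fell (-0.51, edgeR adjusted p = 0.00024). These further genes were named after their values were seen. *Jag1*, the most abundant in CPM over both groups, was not called (-0.23). Of 6 genes of the fetal and adipocyte precursor list tested, 1 rose, the transcription factor *Sox9* (0.49, named after its value was seen), and 3 fell. The share called in this list was 66.7%. Of the 3 that fell, *Lpl*, which releases fatty acids from lipoproteins, fell from 453 ± 110.2 to 87.4 ± 9.96 CPM (-2.37, SE 0.18, edgeR adjusted p = 6.53e-05).

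Smooth muscle and pericyte markers, summed over 8 genes, were at 422 to 499 CPM with vehicle and 295 to 360 with TGFβ, and of the 8, 1 rose and 1, *Notch3*, fell. Without *Notch3*, left out after the values were seen, the sum of the other 7 was 219 to 294 CPM with vehicle and 232 to 311 with TGFβ, and the groups overlapped. Of the 8 fibroblast markers, 6 fell with TGFβ and 0 rose, where 20.1% of all genes were called lower and 20.5% higher. The growth factor receptor gene *Pdgfra* was among those that fell (-1.37, edgeR adjusted p = 1.77e-05). *Col1a1* (0.23, groups apart) and *Col1a2* (0.13, groups overlapping), named after their values were seen, were not called. The sum of the 8 fibroblast markers, which collagen genes dominate, was 52747 to 62606 CPM with vehicle and 49397 to 55308 with TGFβ. Over the 6 libraries its log2 level correlated with that of *Rian* (r = -0.91) and of *Grb10* (r = -0.92). With *Rian* and *Grb10*, the smooth muscle and pericyte sum gave r of -0.88 and -0.90 and the endothelial sum -0.75 and -0.81. The first of these sums includes *Notch3*, without which its groups overlapped, and r without *Notch3* was not computed. Each r was taken over both groups, so a difference between the groups enters it. The leukocyte sum gave -0.64 and -0.76, and the mesothelial sum -0.07 and -0.06. The part of any of these markers in the *Rian* and *Grb10* values was not tested. The genes most like *Rian* over the libraries were *Ndrg4* (r = 0.998), *Tmem129* (0.996) and *Ncbp2* (0.995), and those most like *Grb10* were *Trip4* (0.998), *Gtf3c1* (0.997) and *Vps36* (0.996). For *Plagl1* they were *Tspyl3* (0.997), *Ascc1* (0.996) and *Parp1* (0.995), for *Ndn* *Gcdh* (0.987), *Galnt4* (0.981) and *Tent5b* (0.980), and *Peg3* was close to *Ylpm1* (0.986) and *Gcc2* (0.962). *H19* was most like *Epn2* (0.973), *Kif21b* (0.973) and *Keap1* (0.971), and *Meg3* most like the gene ENSMUSG00000026977 (0.969), *Slc25a20* (0.957) and *Hint2* (0.940). These are among the highest of 10373 genes over 6 libraries, and no 2 members were among each other's 3 most alike.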

How the data were processed

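Stranded poly(A) libraries were sequenced by the authors from one end (75 bases), and the submitters' notes name mm10 and DESeq2. The aligner, the counter and the annotation are not given in the sources used here. The deposited table holds raw read counts per gene, as whole numbers. Its columns name a group and no replicate. Columns of the authors' own comparison (their mean, fold changes and p-values) were not used.

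Here the counts were scaled (TMM), filtered (filterByExpr) and tested (quasi-likelihood) in edgeR 4.0.16 under R 4.3.3, with Benjamini-Hochberg adjustment over 14334 genes. Standard errors are log2 fold changes over the root of F. Correlations use log2(CPM + 0.5). Exon lengths and coordinates are from GENCODE M21 (25086 of 25140 identifiers matched). *Ccn2* is listed under the older symbol Ctgf. Alternatives used DESeq2 1.42.0, limma 3.58.1 (voom), other scalings, filters and left-out libraries, and the steps were tested on simulated data.

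Libraries held 27851677 to 31072338 counts. All 10 members were named. Of each list, genes called beyond 1 on the log2 scale (up to 5) and the most abundant were named, and any tested neighbour could be. Some genes that the rule names are not reported here. Members and lists were chosen with earlier results of these data known.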

Additional observations from a re-analysis of the deposited data

How the results depend on the processing

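*Rian* was called in all 12 planned refits, with 0.53 to 0.81, and in both added ones. With an adjusted p under 0.01, 3595 genes and 1 member (*Rian*) were called, and neither *Grb10* (0.26) nor *Plagl1* (-0.25) was. An adjusted p under 0.05 with a log2 fold change beyond 1 left 971 genes, 0 members and 3 other imprinted genes. Leaving out 1 library at a time gave 4489 to 5481 genes and 1 to 3 members called, and log2 fold changes of 0.21 to 0.31 for *Grb10*, -0.30 to -0.20 for *Plagl1*, -0.077 to 0.13 for *Meg3*, -0.038 to 0.12 for *Peg3*, -0.67 to -0.07 for *Mest*, -0.12 to -0.0043 for *Ndn*, -0.30 to -0.08 for *Igf2*, -0.082 to 0.26 for *Mirg*, -0.059 to 0.0074 for *Copg2*, -0.15 to 0.043 for *Igf1r* and -0.054 to 0.054 for *Insr*. *Plagl1* was not called by DESeq2 (-0.25). Without vehicle B and TGFβ B together, *Mest*, which is highest in these libraries, passed the threshold (-0.36), which is no test of it. In that setting *Plagl1* was not called (-0.26), *Meg3* turned sign (-0.0018) and so did *Insr* (0.051). Without vehicle A and TGFβ C together, 3775 genes were called, *Plagl1* was not (-0.18), and *Meg3* (-0.024) and *Peg3* (-0.058) turned sign. Both settings were chosen after seeing the data. The longest transcript in place of merged exons exchanged 2 members of the vehicle order, *H19* and *Mest*. With TGFβ it put *Rian* at 10.9 RPKM beside *Mest* at 11.2, against 4.81 and 7.57 by merged exons. The cause of these changes was not tested. Other scalings moved the median of all genes by less than 0.1. With 3 libraries a group, adjusted p-values close to 0.05 changed sides easily, and *Dlk1* and *Zim1* were limited by counts. No paired analysis was possible because the columns carry no replicate numbers.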
